A study of Mus musculus with 6 samples.

Results

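The enzymes of serine synthesis and of folate-bound one-carbon transfer were examined in cells with 2 silenced steps of mitochondrial citrate handling. The 10 genes were *Phgdh*, *Psat1*, *Psph*, *Shmt1*, *Mthfd1*, *Shmt2*, *Mthfd2*, *Mthfd2l*, *Mthfd1l* and *Aldh1l2*, each chosen by its name among the 54532 genes of the count table. All 10 passed the filter on low counts and were among the 15307 genes tested. RNA-seq had been run on 6 samples of MLE12 cells, a mouse lung epithelial line that was made from tumors of a mouse carrying a viral large T antigen under a surfactant protein C promoter. In the labels the strain of all 6 samples is C57BL/6J. The 3 Ctrl shRNA samples had received an empty control lentivirus, and the 3 Idh3α shRNA + Slc25a1 shRNA samples (knockdown) had received both silencing lentiviruses at once, each virus at a multiplicity of infection of 50. Virus was left on the cells for 16 h and the cells were grown for a further 80 h. By these doses the knockdown cells met more virus in total than the Ctrl cells, so viral load and silencing cannot be told apart. Since the silenced cells took up a pair of silencing viruses together, the effects of either one cannot be told apart, and the sources used here do not say whether the 3 samples of a group were separate cultures. P-values therefore measure the spread between these samples, which may be technical.

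Serine is made from the glycolytic intermediate 3-phosphoglycerate in 3 cytosolic steps, catalyzed in turn by PHGDH, PSAT1 and PSPH. Serine hydroxymethyltransferases then pass a carbon of serine to tetrahydrofolate, SHMT1 in the cytosol and SHMT2 in mitochondria, and each compartment has its own enzymes that interconvert the methylene form used for thymidylate and the formyl form used for purines. Formate made in mitochondria can be exported to supply the cytosol. The stress-response transcription factor ATF4 is a well known activator of several of these genes.

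The 2 targeted genes were examined first. *Idh3a*, which encodes the catalytic subunit of the mitochondrial NAD-dependent isocitrate dehydrogenase, was at 79.8, 137 and 93.0 CPM (counts scaled to a common library size by trimmed mean of M values, TMM) in Ctrl shRNA replicates 1 to 3 and at 58.5, 57.9 and 55.5 in knockdown replicates 1 to 3. *Slc25a1*, the mitochondrial citrate carrier, was at 103, 98.7 and 108 CPM against 68.9, 69.6 and 63.0. Both were lower in every knockdown sample than in any Ctrl sample. The log2 fold change was -0.85 ± 0.20 (SE, n = 3 per group) for *Idh3a* and -0.62 ± 0.08 for *Slc25a1*, with adjusted p of 0.254 and 0.104 in the quasi-likelihood test of edgeR, adjusted by the Benjamini-Hochberg method across the tested genes. Without Ctrl replicate 2 the values were -0.60 and -0.66, with adjusted p of 0.0142 and 0.00649 in the same test.

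Ctrl replicate 2 stood apart from the other 5 libraries. Totals were alike, from 27273502 to 28535653 counts, but this library had 16681 genes with a count against 19902 to 23147, 6.49% of counts on mitochondrially encoded genes against 1.57% to 1.80%, and a TMM factor of 0.711 against 1.05 to 1.09. The 10 enzymes made up 0.0736% of its counts and 0.102% to 0.113% of those of the others. Of the marker lists, the summed CPM of 7 lung epithelial genes was 1064 to 1196 in Ctrl and 1196 to 1310 in knockdown samples, mostly from *Krt19* and *Krt8*, with *Krt18* and *Cldn4* at or near 0. Of 7 alveolar type 2 genes, *Nkx2-1* and *Abca3* were abundant, *Sftpc* ranged from 27.2 to 97.3 CPM, and *Sftpa1* and *Sftpd* were at or near 0, so the full type 2 program was not present. The list summed to 524 to 532 CPM in Ctrl and 441 to 471 in knockdown samples. Immune and endothelial lists summed to at most 3.06 and 0.989 CPM with *Ptprc* at 0 in all 6 libraries. The fibroblast list, almost all of it *Dcn*, was at 1234 CPM in Ctrl replicate 2 and at 317 to 377 in the others. In bulk samples, fewer cells of a type and less RNA per cell cannot be told apart. The tests of the 10 enzymes below are given with and without Ctrl replicate 2, as are other values that it moved, and the part of its composition in any difference was not tested.

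The enzymes did not move as a block. *Aldh1l2*, *Psat1* and *Mthfd2* were lower in all 3 knockdown samples than in any Ctrl sample, *Mthfd1*, *Shmt2* and *Shmt1* were higher in all 3, and the groups of *Phgdh*, *Psph*, *Mthfd2l* and *Mthfd1l* overlapped. Among all genes tested, 10.7% were lower without overlap and 14.7% were higher without overlap. With 3 of 10 in each direction, the members are too few to be set apart from these shares. Without Ctrl replicate 2, 3 members were lower without overlap (background 17.5%) and 4 were higher (background 20.4%), with *Mthfd2l* as the fourth. No member passed an adjusted p of 0.05 in edgeR with all 6 libraries, where 0.00653% of genes were lower and 0.0588% were higher past it. At an unadjusted p under 0.05 in this test, 3 members were lower (background 6.65%) and 1 was higher (background 7.47%). Without Ctrl replicate 2, *Aldh1l2* alone passed the adjusted threshold as lower (background 0.675%) and 0 members passed as higher (background 1.11%), while at the unadjusted p 3 were lower (background 10.3%) and 1 was higher (background 9.54%). DESeq2 on all 6 libraries called *Aldh1l2* and *Psat1* lower (background 1.25%) and 0 members higher (background 1.73%). Limma with voom and sample quality weights, which downweights a variable library, called *Aldh1l2*, *Psat1* and *Mthfd2* lower (background 6.34%) and *Mthfd1* higher (background 8.67%). The median log2 fold change of the 10 was -0.02 with all libraries and -0.02 without Ctrl replicate 2, beside -0.01 and -0.02 over all genes tested.

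**Figure D1:**
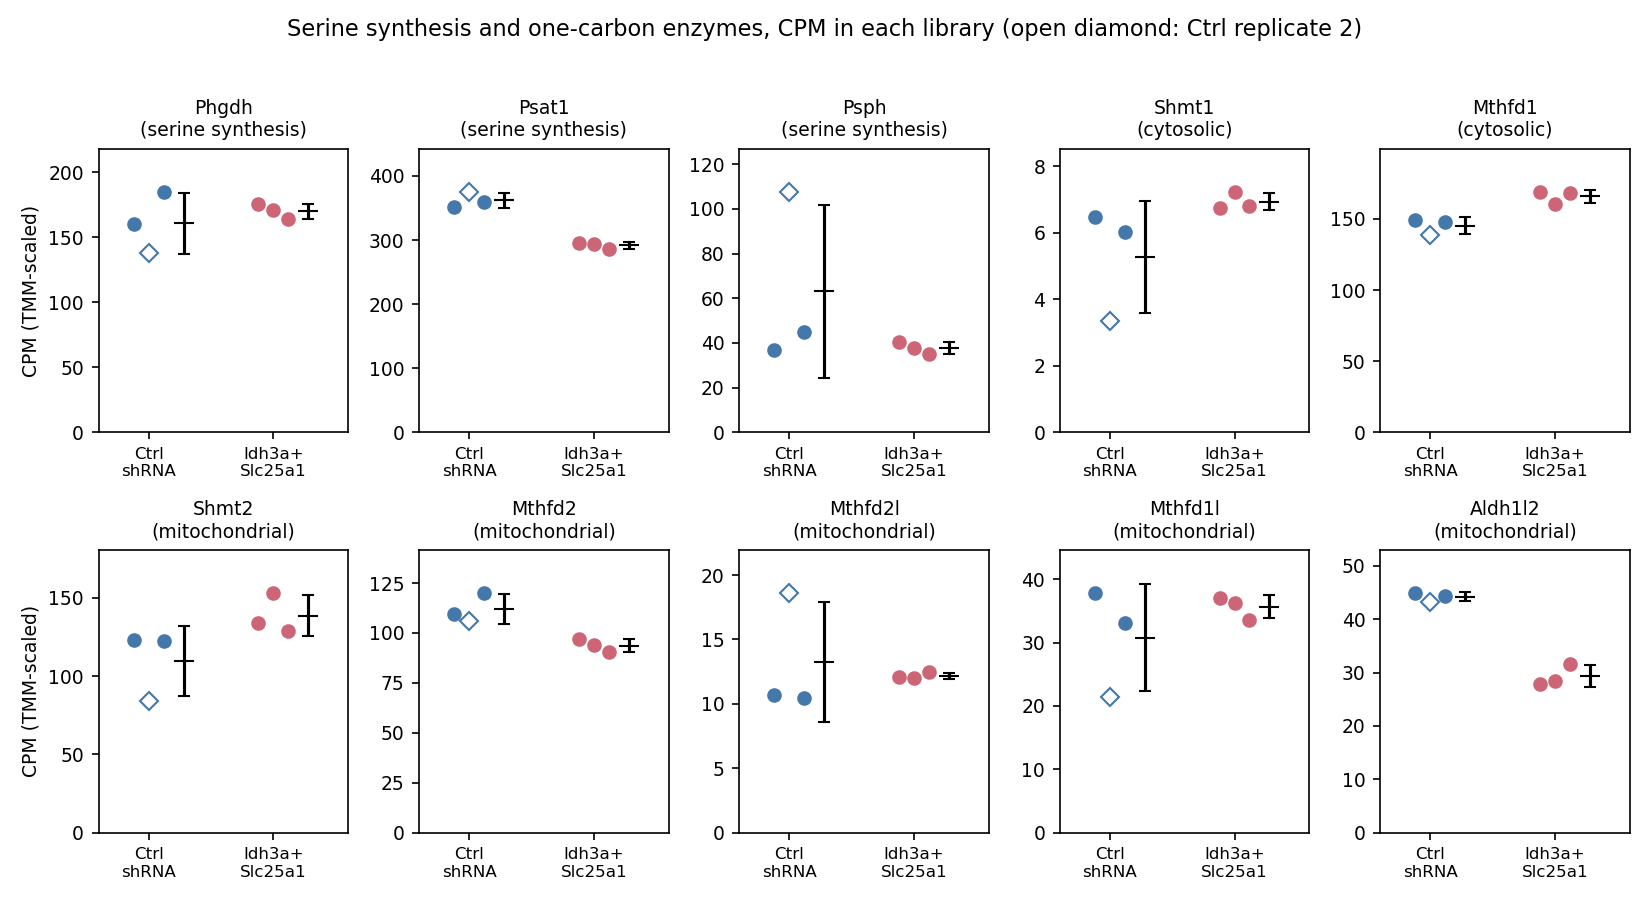
CPM (vertical axes, from 0) of the 10 enzymes in the 3 Ctrl shRNA libraries (blue, with Ctrl replicate 2 as an open diamond) and the 3 knockdown libraries (red), with the mean and SD of each group in black. *Aldh1l2*, *Psat1* and *Mthfd2* sit lower in the knockdown with no overlap, and Ctrl replicate 2 lies far from the other Ctrl libraries for *Psph*, *Mthfd2l*, *Shmt1*, *Mthfd1l* and *Shmt2*.

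How far Ctrl replicate 2 lay from the other 2 Ctrl libraries differed from gene to gene. Its CPM was 2.63 times their mean for *Psph* and 1.76 times for *Mthfd2l*. The ratio was 0.535 for *Shmt1*, 0.606 for *Mthfd1l*, 0.684 for *Shmt2* and 0.798 for *Phgdh*. For *Psat1*, *Aldh1l2*, *Mthfd1* and *Mthfd2* it was between 0.921 and 1.05, and these 4 genes were the members at an unadjusted p under 0.05 both with and without that library.

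Levels were compared between genes per length, with the deposited FPKM values (fragments scaled by gene length and library size). In Ctrl samples *Psat1* was at 85.2 ± 2.06 FPKM (SD, n = 3) and *Phgdh* at 64.96 ± 9.99, without overlap of their samples. *Shmt2* (35.4 ± 7.49), *Mthfd1* (32.8 ± 1.61) and *Mthfd2* (32.2 ± 2.36) came next and overlapped one another. Below them were *Psph* (14.6 ± 8.78), *Mthfd1l* (6.97 ± 1.95), *Aldh1l2* (5.91 ± 0.162), *Mthfd2l* (1.99 ± 0.682) and *Shmt1* (1.36 ± 0.446), each overlapping the next in order except *Aldh1l2* and *Mthfd2l*. In the knockdown, *Psat1* (68.8 ± 1.21) and *Phgdh* (68.7 ± 2.27) overlapped, while *Shmt2* (44.7 ± 4.18), *Mthfd1* (37.5 ± 1.05) and *Mthfd2* (26.9 ± 0.942) did not. *Mthfd1l* (8.06 ± 0.403) and *Aldh1l2* (3.92 ± 0.273) did not overlap, while *Psph* (8.72 ± 0.650) and *Mthfd1l* did, as did *Mthfd2l* (1.84 ± 0.0367) and *Shmt1* (1.79 ± 0.0640). The overlaps of *Shmt2* with *Mthfd1* and *Mthfd2*, and of *Mthfd1l* with *Aldh1l2*, came in Ctrl from replicate 2 alone. In Ctrl replicates 1 and 3, *Shmt2* (39.9 and 39.6) already lay above *Mthfd1* (33.8 and 33.6) and *Mthfd2* (31.6 and 34.8), and *Mthfd1l* (8.59 and 7.51) above *Aldh1l2* (6.03 and 5.96). Without that library, the neighbours that differed between the groups were therefore *Psat1* with *Phgdh*, apart in Ctrl and overlapping in the knockdown, and *Mthfd1* with *Mthfd2*, overlapping in Ctrl and apart in the knockdown.

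Of the serine synthesis enzymes, *Phgdh* (ENSMUSG00000053398, chromosome 3, 98313170 to 98339990 of mm10, minus strand) encodes the dehydrogenase that commits 3-phosphoglycerate to serine. It was at 160, 138 and 185 CPM in Ctrl replicates 1 to 3 and at 176, 171 and 164 in knockdown replicates 1 to 3. The knockdown samples lay within the range of the Ctrl samples. Its log2 fold change was 0.08 (95% confidence interval -0.21 to 0.37, adjusted p = 0.749 in edgeR) and -0.03 (-0.21 to 0.15) without Ctrl replicate 2, so that its sign turned.

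*Psat1* (ENSMUSG00000024640, chromosome 19, 15904678 to 15947337, minus strand) encodes the aminotransferase of the second step, which takes its nitrogen from glutamate and releases 2-oxoglutarate. It was at 352, 375 and 359 CPM in Ctrl and at 295, 294 and 286 in knockdown samples. Every knockdown sample was lower than every Ctrl sample, with means of 361.8 ± 11.6 and 291.8 ± 5.32 (SD, n = 3), a difference of -19.4% with and -17.9% without Ctrl replicate 2. Its log2 fold change was -0.31 (-0.50 to -0.12, adjusted p = 0.273 in edgeR) with all libraries and -0.29 (-0.44 to -0.15, adjusted p = 0.0620) without Ctrl replicate 2. DESeq2 gave an adjusted p of 9.13e-04, within a range of 2.97e-04 to 0.824 over all 20 fits.

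*Psph* (ENSMUSG00000029446, chromosome 5, 129765558 to 129787449, minus strand) encodes the phosphatase of the last step. It was at 36.8, 107 and 45.0 CPM in Ctrl and at 40.5, 37.5 and 34.9 in knockdown samples. One Ctrl library held the high value and the remaining libraries overlapped. The log2 fold change of -0.74 (-1.71 to 0.23, adjusted p = 0.392 in edgeR) became -0.13 (-0.37 to 0.11) without that library. *Psph* shares 452 exonic bases with *Cct6a*, on the opposite strand, which had a mean of 7713 counts against 1322 for *Psph*, and the strand setting of the counting was not given in the sources used here. *Cct6a* was at 233, 271 and 248 CPM in Ctrl samples, which puts Ctrl replicate 2 at 1.13 times the mean of the other 2, against 2.63 times for *Psph*.

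Both genes of the cytosolic pair were higher in the knockdown without overlap, as 14.7% of all genes tested were. Neither passed the adjusted threshold in edgeR or DESeq2 with all libraries. *Shmt1* (ENSMUSG00000020534, chromosome 11, 60788104 to 60811718, minus strand), the cytosolic serine hydroxymethyltransferase, was the least abundant, at 6.46, 3.34 and 6.03 CPM in Ctrl and 6.75, 7.22 and 6.81 in knockdown samples. The groups did not overlap, but the nearest Ctrl and knockdown samples were close. Its log2 fold change was 0.39 (-0.24 to 1.01, adjusted p = 0.462 in edgeR) and 0.14 (-0.16 to 0.44) without Ctrl replicate 2. The gene shares 184 exonic bases with *Smcr8* on the opposite strand, which had a mean of 1433 counts against 177 for *Shmt1*.

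*Mthfd1* (ENSMUSG00000021048, chromosome 12, 76255298 to 76319803, plus strand) encodes the cytosolic enzyme that joins dehydrogenase, cyclohydrolase and formate-tetrahydrofolate ligase activities in 1 protein. It was at 149, 138 and 148 CPM in Ctrl and 169, 161 and 168 in knockdown samples. All knockdown samples were higher, by 14.3% between the means with and 11.7% without Ctrl replicate 2. The log2 fold change was 0.19 (0.02 to 0.36, adjusted p = 0.347 in edgeR) and 0.15 (0.01 to 0.30, adjusted p = 0.239) without Ctrl replicate 2. With quality weights the adjusted p of limma was 0.0375, the lowest of the 20 fits, whose highest was 0.687.

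Of the 5 mitochondrial enzymes, *Shmt2* (ENSMUSG00000025403, chromosome 10, 127517123 to 127522444, minus strand) releases the one-carbon unit of serine within mitochondria. It was at 123, 83.9 and 122 CPM in Ctrl and 134, 153 and 129 in knockdown samples. The knockdown samples were higher without overlap. The fitted log2 fold change was 0.34 (-0.07 to 0.74, adjusted p = 0.377 in edgeR) and 0.17 (-0.03 to 0.36, adjusted p = 0.317) without Ctrl replicate 2.

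*Mthfd2* (ENSMUSG00000005667, chromosome 6, 83305691 to 83325908, minus strand) and *Mthfd2l* (ENSMUSG00000029376, chromosome 5, 90931117 to 91021368, plus strand) encode the paired mitochondrial dehydrogenase-cyclohydrolases. *Mthfd2* was at 110, 106 and 120 CPM in Ctrl and 96.9, 93.8 and 90.3 in knockdown samples. It was lower in every knockdown sample, with a log2 fold change of -0.26 (-0.45 to -0.07, adjusted p = 0.323 in edgeR) and -0.30 (-0.46 to -0.15, adjusted p = 0.0740) without Ctrl replicate 2. The adjusted p ranged from 0.00765 to 0.879 over the 20 fits. *Mthfd2l* was at 10.7, 18.6 and 10.4 CPM in Ctrl and 12.1, 11.997 and 12.4 in knockdown samples. All of its knockdown samples lay below Ctrl replicate 2 and above the other 2 Ctrl libraries. Its log2 fold change was -0.12 (-0.70 to 0.47, adjusted p = 0.825 in edgeR) and turned to 0.20 (-0.04 to 0.43, adjusted p = 0.331) without Ctrl replicate 2.

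*Mthfd1l* (ENSMUSG00000040675, chromosome 10, 3973118 to 4167081, plus strand) encodes the mitochondrial ligase that yields formate for export to the cytosol. It was at 37.9, 21.5 and 33.0 CPM in Ctrl and 37.0, 36.3 and 33.6 in knockdown samples. The groups overlapped. In edgeR, the log2 fold change was 0.21 (-0.29 to 0.71, adjusted p = 0.612 in edgeR) and -0.0029 (-0.21 to 0.20) without Ctrl replicate 2.

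*Aldh1l2* (ENSMUSG00000020256, chromosome 10, 83487450 to 83534140, minus strand) encodes the mitochondrial 10-formyltetrahydrofolate dehydrogenase, which oxidizes the one-carbon unit to CO2 and makes NADPH. It showed the clearest difference of the 10. Its CPM was 45.0, 43.3 and 44.4 in Ctrl and 27.9, 28.4 and 31.6 in knockdown samples. The means were 44.2 ± 0.857 and 29.3 ± 2.02 (SD, n = 3), a difference of -33.7% (-34.4% without Ctrl replicate 2), and the gap between the groups was wider than the range within either. The log2 fold change was -0.59 (-0.79 to -0.40, adjusted p = 0.112 in edgeR) with all libraries and -0.62 (-0.81 to -0.43, adjusted p = 0.0143) without Ctrl replicate 2. DESeq2 gave 2.47e-06, within a range of 5.66e-07 to 0.675 over the 20 fits, of which 6 put the gene past the threshold. The exact two-sided permutation p of its CPM was 0.1, the smallest that 3 against 3 samples can give.

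*Aldh1l2* shares 1056 of its 7503 exonic bases with *D10Wsu102e* on the opposite strand, which had a mean of 2149 counts against 1025 for *Aldh1l2*. Since the use of strand is not given, reads from the shared bases may not have been told apart. *D10Wsu102e* was at 71.3, 66.1 and 69.0 CPM in Ctrl and 77.7, 81.1 and 88.7 in knockdown samples. It was higher in the knockdown without overlap, the direction opposite to that of *Aldh1l2*, with a log2 fold change of 0.26 (adjusted p = 0.320 in edgeR) and of 0.22 without Ctrl replicate 2.

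**Figure D2:**
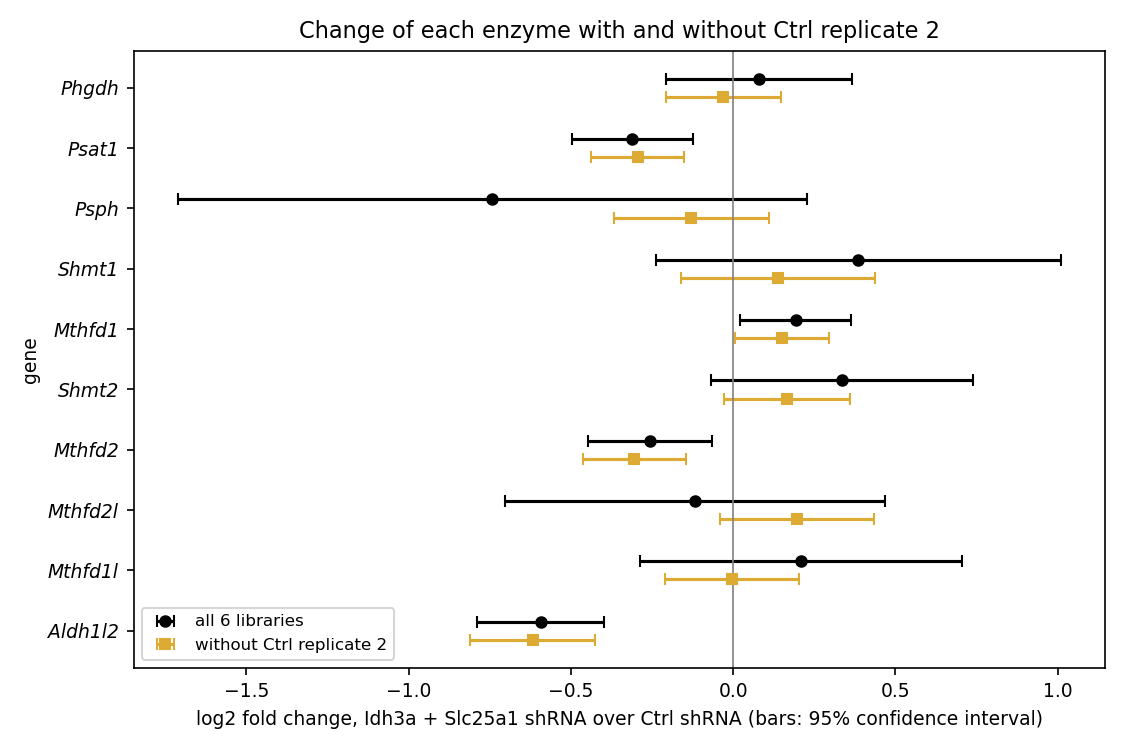
Log2 fold change of knockdown over Ctrl shRNA (horizontal axis) of each enzyme with its 95% confidence interval, from edgeR with all 6 libraries (black circles) and without Ctrl replicate 2 (yellow squares). The intervals of *Aldh1l2*, *Psat1* and *Mthfd2* lie below 0 and that of *Mthfd1* lies above 0 in both fits, while the interval of *Psph* narrows from -1.71 to 0.23 to -0.37 to 0.11.

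The mitochondrial and cytosolic one-carbon enzymes were then set against each other within each library, as the mean log2 CPM of *Shmt2*, *Mthfd2*, *Mthfd2l*, *Mthfd1l* and *Aldh1l2* minus that of *Shmt1* and *Mthfd1*. This difference hardly depends on the scaling of a library, and as a score over chosen genes it is given without a test. It was 0.61, 1.00 and 0.64 in Ctrl replicates 1 to 3 and 0.37, 0.39 and 0.35 in the knockdown. The balance was thus lower in all 3 knockdown samples, by 0.38 between the means and by 0.26 without Ctrl replicate 2. The cytosolic mean was 4.96, 4.44 and 4.91 against 5.09, 5.10 and 5.09, higher in the knockdown without overlap. The mitochondrial mean was 5.58, 5.44 and 5.55 against 5.46, 5.48 and 5.44, which overlapped through Ctrl replicate 2. In summed CPM, which weights abundant enzymes, the cytosolic pair was at 156, 142 and 154 against 176, 168 and 175, while the mitochondrial sum was at 326, 273 and 330 against 308, 324 and 296.

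The shift of the balance did not rest on *Aldh1l2* or *Shmt1* alone. The log2 fold changes of *Shmt2*, *Mthfd1l*, *Mthfd2* and *Mthfd2l* were 0.34, 0.21, -0.26 and -0.12 with all libraries. Without Ctrl replicate 2 they were 0.17, -0.0029, -0.30 and 0.20. The mitochondrial enzymes other than *Aldh1l2* thus did not fall as a group, while the cytosolic mean was higher. Without *Aldh1l2* the balance was 0.63, 1.00 and 0.66 in Ctrl and 0.53, 0.55 and 0.47 in knockdown samples, a mean difference of -0.25 with all libraries and of -0.13 without Ctrl replicate 2. Without *Shmt1* it was -1.64, -1.67 and -1.66 against -1.94, -1.84 and -1.95, a difference of -0.26 both with and without Ctrl replicate 2. In the last version the 3 Ctrl libraries lay close together and the groups did not overlap.

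The enzymes that do the same step in the 2 compartments gave a different picture. *Shmt2* minus *Shmt1* was 4.24, 4.62 and 4.32 on the log2 CPM scale in Ctrl and 4.29, 4.40 and 4.22 in knockdown samples. *Mthfd1l* minus *Mthfd1* was -1.98, -2.68 and -2.16 against -2.19, -2.15 and -2.32. Both pairs overlapped with all libraries and also without Ctrl replicate 2. *Mthfd2* minus its mitochondrial relative *Mthfd2l* was 3.35, 2.50 and 3.52 against 2.99, 2.96 and 2.85, lower without overlap only when Ctrl replicate 2 was left out. *Aldh1l2* minus *Mthfd1l*, whose mitochondrial products use 10-formyltetrahydrofolate in different reactions, was 0.25, 1.01 and 0.43 against -0.41, -0.35 and -0.09. It was lower in every knockdown sample. On the per-length log2(FPKM + 1) scale it was -0.45, 0.21 and -0.29 in Ctrl and -0.99, -0.94 and -0.72 in knockdown samples, so *Aldh1l2* lay above *Mthfd1l* in Ctrl replicate 2 alone. Within serine synthesis, *Psat1* minus *Phgdh* was 1.13, 1.44 and 0.96 against 0.75, 0.79 and 0.80, also lower in the knockdown without overlap, with a mean difference of -0.40 with and -0.27 without Ctrl replicate 2. *Psph* minus *Phgdh* was -2.12, -0.36 and -2.03 against -2.11, -2.18 and -2.23, and overlapped with and without Ctrl replicate 2. On the log2(FPKM + 1) scale it was -2.787, -1.127 and -2.725 against -2.790, -2.849 and -2.888, lower without overlap by a narrow gap.

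**Figure D3:**
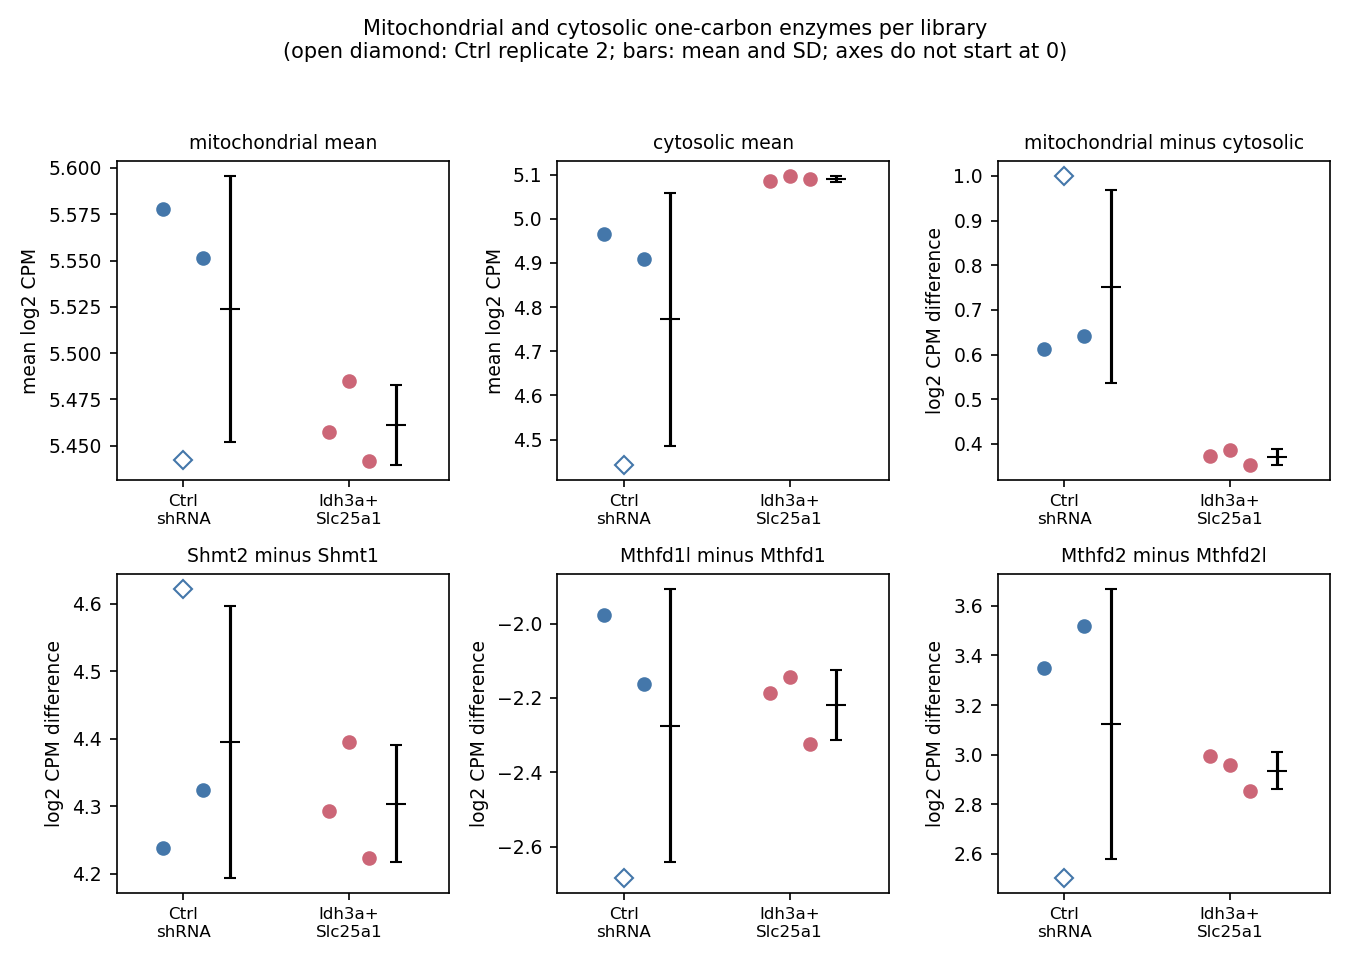
Mean log2 CPM of the 5 mitochondrial and the 2 cytosolic one-carbon enzymes, their difference, and the differences of 3 enzyme pairs in each library (vertical axes, log2 scale, not starting at 0), with Ctrl shRNA in blue, Ctrl replicate 2 as an open diamond, knockdown in red, and mean and SD in black. The mitochondrial minus cytosolic values of the knockdown, 0.35 to 0.39, lie below the 0.61 to 1.00 of the Ctrl samples, while *Shmt2* minus *Shmt1* and *Mthfd1l* minus *Mthfd1* overlap.

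Promoter windows of the enzymes were read from RefSeq (GRCm38.p6, 250 bases before to 50 after the start of transcription), where 9 of the 10 genes had 10 windows and *Aldh1l2* had none. TGATGNAA, the core of the response element bound by CEBP-ATF dimers such as those of ATF4, was in 0 of the 10 windows on either strand and in 3.97% of all 32851 windows. CACGTG, the E-box bound by MYC among others, was in 0 of 10 and in 7.15% of all. After the windows had been read, CCAAT was also searched, the box bound by NF-Y, which overlaps neither of these motifs. It was found on either strand in 6 of the 10 windows, against 37.4% of all windows. With a cut chosen, like the motif, after the windows had been read, 3.37% of all windows held it at least 3 times. The first windows of *Psat1* and *Mthfd2* held it 3 times each. The 120 bases before the start of each are shown 5′ to 3′ on the strand of the gene because they hold these repeats, with CCAAT, or ATTGG where it reads on the other strand, in capitals. The third *Psat1* match begins 23 bases after the start and is not shown.
Psat1, chr19:15925060-15925179, minus strand: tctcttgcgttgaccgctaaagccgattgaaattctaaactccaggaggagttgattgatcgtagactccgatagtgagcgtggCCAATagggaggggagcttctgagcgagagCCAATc
Mthfd2, chr6:83317605-83317724, minus strand: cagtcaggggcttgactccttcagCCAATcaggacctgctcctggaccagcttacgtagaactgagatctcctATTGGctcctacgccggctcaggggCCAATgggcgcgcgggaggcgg
A match describes the letters of a window. *Phgdh* and *Psph* held CCAAT 2 times each and *Mthfd1* and *Shmt1* 1 time each, while the windows of *Shmt2*, *Mthfd1l* and *Mthfd2l* and the second *Psat1* window held 0.

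Of the genes around the pathway, the list that lay lowest was that of ATF4 targets outside it. Of 11 genes, 10 were tested and all 10 had a negative log2 fold change, with a median of -0.55 beside -0.01 over all genes tested. With all libraries 0 passed the adjusted threshold in edgeR and 9 were lower at an unadjusted p under 0.05 (background 6.65%). Without Ctrl replicate 2, 5 passed as lower (background 0.675%) and 0 as higher, and DESeq2 called 4 lower (background 1.25%). *Vldlr*, a lipoprotein receptor, was at 37.1, 33.8 and 41.1 CPM in Ctrl and 16.9, 17.7 and 19.1 in knockdown samples. *Chac1*, which degrades glutathione, was at 19.96, 16.6 and 19.5 against 10.1, 11.1 and 8.53. Neither gene overlapped between groups, with log2 fold changes of -1.06 ± 0.11 (SE) and -0.92 ± 0.14 and adjusted p of 0.0575 and 0.155 in edgeR, or -1.14 and -1.003 with adjusted p of 0.0011 and 0.0115 without Ctrl replicate 2.

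*Slc7a5*, a carrier of large neutral amino acids, was at 180, 163 and 168 CPM against 121, 129 and 115. *Asns*, asparagine synthetase, was at 158, 254 and 164 against 112, 120 and 113. *Trib3*, a stress-induced pseudokinase, was at 14.5, 12.9 and 17.3 against 10.99, 10.3 and 9.27. All 3 were lower in the knockdown without overlap, with log2 fold changes of -0.49, -0.74 and -0.55 and adjusted p of 0.178, 0.288 and 0.295 in edgeR. Without Ctrl replicate 2 these were -0.53, -0.49 and -0.65, with adjusted p of 0.0155, 0.0142 and 0.0419 in edgeR. *Gdf15*, a secreted stress cytokine, had a log2 fold change of -1.31 ± 0.47 (-1.07 without Ctrl replicate 2) at 1.00, 1.32 and 0.628 CPM in Ctrl and 0.571, 0.330 and 0.270 in knockdown samples, with an adjusted p of 0.345 in edgeR. *Atf4* itself, named here after its values were seen, was at 201, 240 and 208 CPM against 198, 200 and 183, lower without overlap both with and without Ctrl replicate 2 but by a narrow gap, with a log2 fold change of -0.16 ± 0.10 (adjusted p = 0.421 in edgeR) that became -0.09 without Ctrl replicate 2.

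Among 9 regulators of the pathway, 0 passed in edgeR with all libraries and 3 passed as higher without Ctrl replicate 2 (background 1.11%). DESeq2 on all 6 libraries called 2 higher (background 1.73%), *Myc* and *Trp53*, with adjusted p of 1.28e-04 and 0.00793. *Myc*, a transcription factor that drives growth and nucleotide synthesis, was at 66.4, 62.4 and 65.8 CPM in Ctrl and 99.7, 117 and 93.5 in knockdown samples. *Trp53*, the p53 tumor suppressor, was at 142, 131 and 155 against 207, 239 and 190. Both were higher without overlap, with log2 fold changes of 0.67 ± 0.10 and 0.57 ± 0.12 and adjusted p of 0.144 and 0.211 in edgeR, or 0.64 and 0.50 with adjusted p of 0.0211 and 0.0497 without Ctrl replicate 2. *Nfe2l2*, which encodes the antioxidant regulator NRF2, was at 440, 969 and 430 CPM against 616, 689 and 594. In edgeR it was not called with all libraries and was called higher without Ctrl replicate 2, which held the highest value of all (log2 fold change 0.05 with it and 0.53 without it, adjusted p = 0.956 and 0.0194 in edgeR).

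In the methionine cycle and polyamine list of 14 genes, 12 were tested. Of these, 10 were positive (7460 of 15307 over all genes) and 11 without Ctrl replicate 2. In edgeR, 0 passed with all libraries and 2 passed as higher without Ctrl replicate 2 (background 1.11%). DESeq2 on all 6 libraries called 1 higher (background 1.73%), *Srm*, with an adjusted p of 2.97e-04. *Srm*, spermidine synthase, was at 58.8, 68.1 and 63.6 CPM against 95.5, 106 and 89.9. *Amd1*, which makes the decarboxylated S-adenosylmethionine that *Srm* uses, was at 93.2, 136 and 94.998 against 122, 122 and 120. *Srm* was higher without overlap (log2 fold change 0.61 ± 0.10, adjusted p = 0.160 in edgeR, and 0.66 with adjusted p = 0.0142 without Ctrl replicate 2), and *Amd1* only without Ctrl replicate 2 (0.36, adjusted p = 0.0313, against 0.17 with it). *Bhmt*, which remethylates homocysteine with betaine, was at 0.628 to 2.02 CPM in Ctrl samples and changed sign, from -0.32 with all libraries to 0.40 without Ctrl replicate 2.

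Purine synthesis uses 10-formyltetrahydrofolate at 2 steps, and all 13 genes of its list were tested, 7 of them positive with a median log2 fold change of 0.07, and 9 positive with a median of 0.11 without Ctrl replicate 2. No gene passed with all libraries in edgeR, *Impdh1* passed as higher without Ctrl replicate 2 (background 1.11%), and DESeq2 called *Atic* and *Impdh1* higher (background 1.73%). *Atic*, which carries out the second of the folate-dependent steps, was at 90.0, 83.1 and 87.6 CPM against 107, 114 and 105. *Impdh1*, on the branch to GMP, was at 55.1, 42.0 and 52.4 against 72.6, 70.9 and 66.0. Both were higher without overlap (0.32 ± 0.07 and 0.49 ± 0.12, adjusted p = 0.245 and 0.261 in edgeR, and 0.28 and 0.37 without Ctrl replicate 2, adjusted p = 0.0856 and 0.0497). *Adssl1*, on the branch to AMP, overlapped between groups at -0.41 ± 0.17 with and -0.41 without Ctrl replicate 2.

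The other 4 lists had 0 genes past the threshold with all libraries and 0 without Ctrl replicate 2 in edgeR. Of the 14 folate carriers and enzymes 10 were tested, 4 positive and 6 negative. *Slc46a1*, the proton-coupled folate transporter, was at 9.30, 8.40 and 8.19 CPM against 13.0, 12.8 and 13.0, higher without overlap (0.58 ± 0.11, adjusted p = 0.180 in edgeR, 0.0532 without Ctrl replicate 2 at 0.55, and 0.00148 in DESeq2, with a range of 0.00148 to 0.675 over all fits). *Mthfs*, which returns 5-formyltetrahydrofolate to the pool, was at 0.488 to 1.32 CPM in Ctrl samples and overlapped (-0.82 ± 0.46, and -0.41 without Ctrl replicate 2). In glycine cleavage and serine transport, with 10 of 11 genes tested, *Gcsh* and *Dld*, which encode the H and L proteins of the glycine cleavage system, had the values of largest size, -0.77 and -0.35. Both were highest in Ctrl replicate 2 (168 and 120 CPM) and were at -0.07 and -0.09 without it. *Gldc*, the decarboxylase of that system, had at most 0.105 CPM in any library and was not tested.

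Of 10 serine users 6 were tested. *Cth*, which makes cysteine from cystathionine, was at 0.581, 0.456 and 0.488 CPM against 1.71, 1.32 and 1.21, higher without overlap at a very low level (1.46 ± 0.32, adjusted p = 0.243 in edgeR, and 1.38 with adjusted p = 0.0878 without Ctrl replicate 2). *Srr*, serine racemase, was at 13.3, 17.3 and 15.7 against 10.6, 12.3 and 10.7, lower without overlap (-0.46 ± 0.14, adjusted p = 0.316 in edgeR, and -0.38 with adjusted p = 0.155 without Ctrl replicate 2). Of the 4 glycolytic genes, *Eno1*, which acts below 3-phosphoglycerate, was at 452, 420 and 456 CPM against 594, 666 and 552, higher without overlap (0.45 ± 0.11, adjusted p = 0.256 in edgeR, 0.0632 without Ctrl replicate 2 at 0.40, and 0.0108 in DESeq2, with a range of 5.08e-04 to 0.675 over all fits). *Gapdh* ran from 9.01 to 82.8 CPM among the Ctrl samples alone, so its log2 fold change (-0.44 ± 0.88, and -0.91 without Ctrl replicate 2) is uncertain. Over all fits the log2 fold change of *Gapdh* ran from -1.21 to 1.10, with adjusted p from 2.76e-04 to 0.999.

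**Figure D4:**
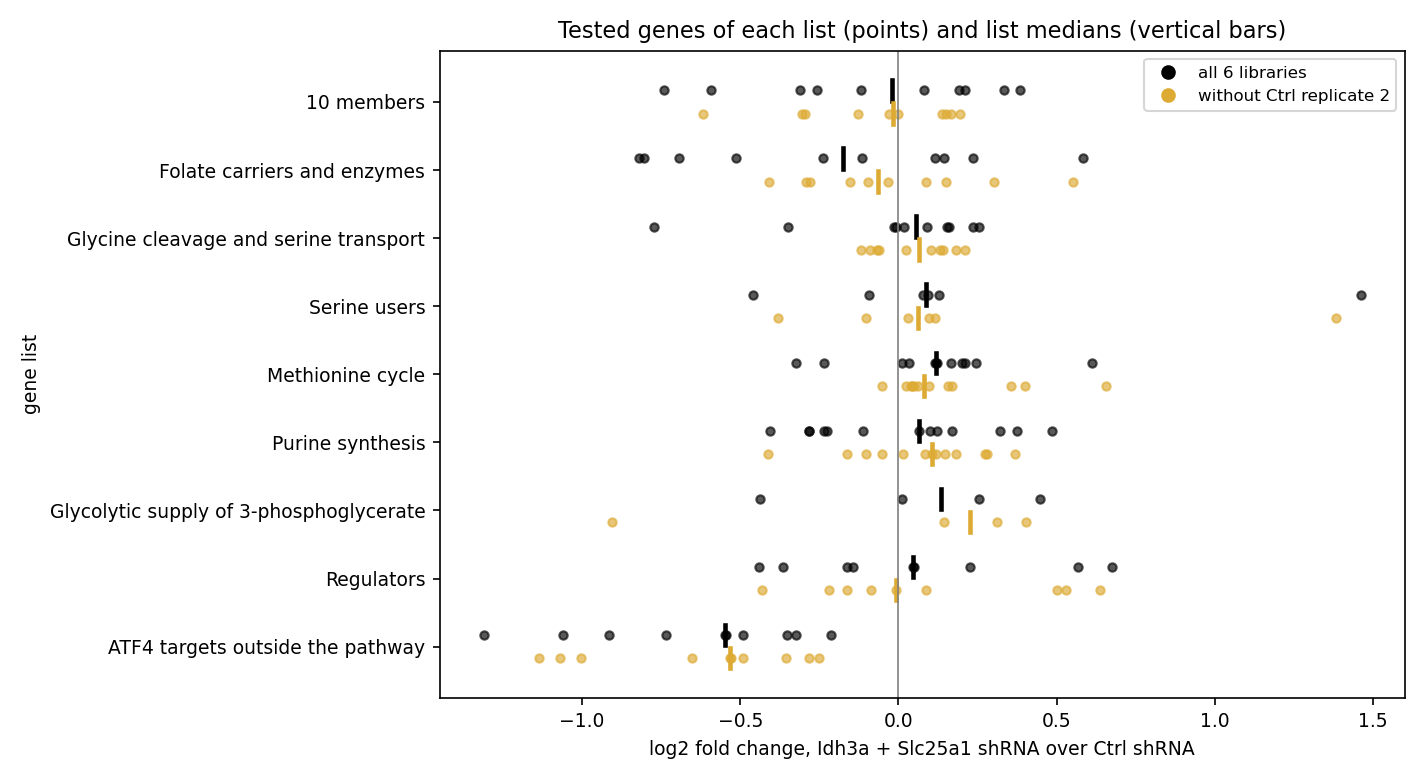
Log2 fold change of knockdown over Ctrl shRNA (horizontal axis) for each tested gene (points) of the 10 enzymes and the 8 lists around them, with list medians as vertical bars, from edgeR with all 6 libraries (black) and without Ctrl replicate 2 (yellow). The 10 tested ATF4 targets outside the pathway lie below 0 in both fits with medians of -0.55 and -0.53, while the 10 enzymes spread to both sides of 0.

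*Aldh1l2*, *Psat1* and *Mthfd2* were lower in both edgeR fits at an unadjusted p under 0.05, and the mean of their standardized log2 CPM was used to find the genes with the most similar pattern over the 6 libraries. The highest Pearson r among genes outside the 10 were those of *Gm9922* (0.996), *Gm23966* (0.995), *Cdk19* (0.993), *Slc25a1* (0.991) and *Fam214a* (0.990). Without Ctrl replicate 2 the r of these 5 genes were 0.991 to 0.997. These r describe likeness only, since the 6 points form 2 groups that do not overlap and share their scaling. *Cdk19*, a kinase of the Mediator complex, was at 84.0, 77.2 and 90.5 CPM in Ctrl and 48.2, 45.0 and 47.9 in knockdown samples. *Gm9922* and *Gm23966* rest on 5 to 42 counts in a library. The 3 enzymes were chosen as lower in the knockdown, so a silenced gene such as *Slc25a1*, lower by design, was favoured to stand among these 5 genes.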

How the data were processed

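RNA-seq of 6 MLE12 samples was analysed, 3 of the Ctrl shRNA group and 3 of the double knockdown group (Idh3α and Slc25a1 shRNA), grouped by the sample labels. The authors deposited whole-number read counts per Ensembl gene, without normalization, and FPKM values, which the authors computed per gene length and per their own library size. The submitters' processing notes name HISAT2 2.0.5, StringTie 1.3.3b, featureCounts 1.5.0-p3 and mm10, and the use of strand is not given in the sources used here. The labels name a paired-end NEBNext Ultra library and Trinity.

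Counts were filtered with filterByExpr, scaled by TMM and tested two-sided in edgeR 4.0.16 (R 4.3.3) by its quasi-likelihood test, and p-values were adjusted by Benjamini-Hochberg across the 15307 tested genes, with a threshold of 0.05. Log2 CPM used a prior count of 2. The same test was run without Ctrl replicate 2. Alternatives were DESeq2 1.42.0, limma 3.58.1 with voom quality weights or on log2(FPKM + 1) and log2(FPKM + 0.1), other scalings and filters, a replicate block, and each library left out. Total counts ran from 27273502 to 28535653 per library. Chi-square values per degree of freedom between replicates were at least 6.13, more than counting error gives, so no library looked like one deposited again. This does not show whether samples came from separate cultures. Tests were tried on simulated data, and figures were drawn with Python 3.11.15 and matplotlib 3.10.9.

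The 10 genes, the 8 lists around them and the markers were chosen with earlier results of these data known. The text names all 10 members and *Idh3a* and *Slc25a1*. It also names each list gene past the threshold in edgeR with or without Ctrl replicate 2 or in DESeq2, the 2 list genes with the largest absolute log2 fold change, and the 5 genes most like the lower members. One list gene that this rule names is not reported here. *Atf4*, *Gldc*, the marker genes and the genes that overlap members are named outside this rule, after their values were seen. The motifs TGATGNAA and CACGTG were set beforehand and CCAAT was added. Protein and metabolite data of the study were not analysed here.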

Additional observations from a re-analysis of the deposited data

How the results depend on the processing

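Of the 10 enzymes, *Psat1*, *Psph*, *Shmt1*, *Shmt2*, *Mthfd1*, *Mthfd2* and *Aldh1l2* kept their direction in all 19 alternatives, while adjusted p passed the threshold in 6 of them for *Aldh1l2*, 3 for *Psat1*, 2 for *Mthfd2* and 1 for *Mthfd1*. Members called lower numbered 0 with all libraries in edgeR, 2 in DESeq2, 3 in DESeq2 without Ctrl replicate 2, 3 with quality weights (which also called 1 higher), 1 with median-of-ratios factors and no Ctrl replicate 2, and 0 to 1 when single libraries were left out. Over all genes, the calls in edgeR (1 lower and 9 higher) became 0 and 1 with library size only, 192 and 265 in DESeq2, 383 and 543 in DESeq2 without Ctrl replicate 2, 971 and 1327 with quality weights, 102 and 179 with median-of-ratios factors and no Ctrl replicate 2, and 0 to 106 lower and 0 to 175 higher when single libraries were left out. Calls of lower genes were 3 without a count filter, 3 on protein-coding genes, 2 on log2(FPKM + 1) and 3 on log2(FPKM + 0.1). Library size alone moved the median of all genes to 0.16 and that of the 10 enzymes to 0.18, and the latter was -0.08 without Ctrl replicate 1.

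With the replicate block, 0 genes were lower and 0 higher; with the block and no Ctrl replicate 2, 251 were lower, 225 were higher and 1 member was lower. Same-numbered samples did not deviate together (correlations -0.15, -0.09 and 0.04), and no sample of number 1 or 2 correlated best with its own number. The deviations of the Ctrl samples are set largely by Ctrl replicate 2. These correlations therefore cannot show whether same-numbered samples were handled together.

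Log2 fold changes that turned sign were those of *Phgdh* (-0.030 to 0.18 with single libraries left out, -0.025 in DESeq2 without Ctrl replicate 2, -0.070 with quality weights, and with no Ctrl replicate 2 -0.025 with median-of-ratios factors and -0.030 with the block), *Mthfd1l* (-0.0029 to 0.39 with single libraries left out, -0.014 with the block and no Ctrl replicate 2) and *Mthfd2l* (-0.28 to 0.20 with single libraries left out, 0.13 with library size only, 0.20 in DESeq2 without Ctrl replicate 2, 0.20 with quality weights, and with no Ctrl replicate 2 0.20 with median-of-ratios factors and 0.21 with the block). Among the list genes named in the text they were those of *Atf4* (0.033 with library size only), *Bhmt* (-0.62 to 0.40 with single libraries left out, 0.41 in DESeq2 without Ctrl replicate 2, 0.45 with quality weights, and with no Ctrl replicate 2 0.40 with median-of-ratios factors and 0.46 with the block), *Gapdh* (-1.14 to 1.10 with single libraries left out, 0.0018 with the block, 0.022 on log2(FPKM + 0.1)) and *Nfe2l2* (-0.17 to 0.53 with single libraries left out). The mitochondrial minus cytosolic difference was -0.38 with either scaling, -0.27 on log2(FPKM + 1) and -0.26 without Ctrl replicate 2, and dropping *Aldh1l2* or *Shmt1* from it was chosen after seeing the data. The cause of these changes was not tested beyond the alternatives themselves. With 3 libraries per group and 1 of them far from the rest, a missed threshold says little about a member's stability.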
